A study of Homo sapiens with 16 samples.

Results

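The tubulins described here are 10 listed human genes, found by symbol after the gene identifiers of the deposited tables were matched without their version numbers, out of 60662 identifiers in each table. They are the alpha tubulins TUBA1A, TUBA1B, TUBA1C and TUBA4A, the beta tubulins TUBB, TUBB2A, TUBB2B, TUBB4B and TUBB6, and TUBG1, which is a gamma tubulin and neither alpha nor beta. RNA-seq was carried out on Jurkat E6-1, an established human T cell line whose genotype the labels give as WT. The peroxide group holds 8 libraries of cells moved into phosphate-buffered saline (PBS) with 10 µM hydrogen peroxide for 4 h. The control group holds 8 libraries of cells with no treatment at 0 h. All come from this 1 cell line, the labels name them as biological replicates, and p-values measure the spread between them. A group kept in saline for 4 h without peroxide was not analysed here, so peroxide, saline and time cannot be told apart in any difference below. Names of the deposited tables assign every library to 1 of 2 batches, each with 4 peroxide and 4 control libraries. The sources used here do not say what sets the batches apart.

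Microtubules are hollow polymers of heterodimers of alpha and beta tubulin, and they form the mitotic spindle, the tracks of motor proteins and, in T cells, the array that turns toward the immune synapse. Gamma tubulin sits in ring complexes that start new microtubules. Alpha and beta tubulins come in several isotypes encoded by separate genes whose coding sequences are very alike. Cells also adjust tubulin mRNA to the pool of free subunits: in this autoregulation TTC5 recognises the first residues of a nascent alpha or beta tubulin chain and the CCR4-NOT deadenylase then degrades the mRNA on the ribosome.

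The first 60 coding bases are printed for 5 of the tubulins, because they show where the isotypes part. The closest copies are not printed side by side. Over these bases TUBA1A, TUBA1B and TUBA1C were identical at all 60, and TUBB2A and TUBB2B at 59. The capitals mark the first 4 codons, which in alpha and beta tubulins encode the residues read in autoregulation. The sequences are the sense strand of coding exons in GENCODE release 29 transcripts, from chromosome 2 for TUBA4A, 6 for TUBB and TUBB2A, 9 for TUBB4B and 17 for TUBG1.
TUBA4A: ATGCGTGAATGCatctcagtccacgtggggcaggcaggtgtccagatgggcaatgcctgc
TUBB: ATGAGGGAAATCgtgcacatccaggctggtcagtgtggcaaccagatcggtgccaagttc
TUBB4B: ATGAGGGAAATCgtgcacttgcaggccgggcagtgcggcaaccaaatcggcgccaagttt
TUBB2A: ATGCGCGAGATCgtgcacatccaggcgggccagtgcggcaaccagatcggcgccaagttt
TUBG1: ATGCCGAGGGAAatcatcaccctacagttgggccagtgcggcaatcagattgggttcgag
Over the whole coding sequence TUBA1A and TUBA1B, both on chromosome 12 like TUBA1C, were identical at 97.2% of aligned positions, TUBA1B and TUBA1C at 96.8%, and TUBA1A and TUBA1C at 95.9%. TUBB2A and TUBB2B, neighbours on chromosome 6, were identical at 98.2%. TUBB and TUBB4B share the same first 4 codons, letter for letter.

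This closeness limits what the counts can hold, because a read that aligns to several genes was set aside as not unique and counted for none of them. Of the 50-base windows along the coding sequence, 78.7% in TUBB2A, 75.7% in TUBA1B, 58.5% in TUBA1A, 57.1% in TUBA1C, 35.8% in TUBG1 and 33.5% in TUBB also occurred in transcripts of another gene. The share was 12.2% in TUBB4B, 1.55% in TUBB6 and 0% in TUBA4A. With 100-base windows it was 68.2% in TUBB2A, 45.3% in TUBA1B, 26.5% in TUBA1A and 3.56% in TUBB4B, and the sources used here do not give the read length. TUBA4A and TUBB4B are therefore the called members whose coding counts are least exposed to the relatives searched. Levels of TUBA1A, TUBA1B, TUBA1C and TUBB2A are uncertain. Genes whose exons overlap those of a member were not searched, apart from listed members and TUBB3. For TUBA4A this left out the related copy TUBA4B. Reads shared with a pseudogene were counted for neither gene. Of the 50-base windows of TUBB 29.3% also occurred in TUBBP1, and of those of TUBA1B 27.0% in TUBAP2. With such reads set aside, the 54 symbols of tubulin pseudogenes and related copies held 849 reads in all, which is 0.249% of the members' 341229 reads. TUBBP1 had more of them than any other copy, with 147 reads in peroxide and 220 in control libraries.

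The libraries held 5556553 to 15720881 reads in genes, and reads not aligned uniquely made up 38.3% ± 4.33 of counted reads in peroxide and 34.1% ± 5.43 in control libraries (SD, n = 8 each; p = 0.107 in an exact permutation test, two-sided). In batch 2 alone that share was 40.8% ± 4.46 in peroxide and 32.8% ± 0.942 in control libraries (SD, n = 4 each; exact permutation p = 0.0286, the smallest this size allows), and in batch 1 alone 35.9% ± 2.83 in peroxide and 35.3% ± 7.98 in control libraries (exact permutation p = 0.943). All 11 T cell markers were detected and 4 were called lower (24.3% of all genes tested were), with a summed level of 3760 to 4602 CPM in peroxide and 3838 to 4711 CPM in control libraries. CPM is the read count relative to the library's total in genes, scaled with TMM factors. The 5 myeloid markers summed to 4.33 to 14.1 CPM in peroxide and 0.125 to 1.10 CPM in control libraries, and 2 of them, CD14 and ITGAM, reached the filter, through their peroxide libraries alone. The 5 B cell markers summed to 31.4 to 55.4 CPM in peroxide and 29.7 to 50.3 CPM in control libraries, nearly all of it CD79A. The part of the not-unique share or of these markers in the tubulin results was not tested.

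After peroxide, TUBB2A, TUBB4B, TUBA4A and TUBA1A transcripts were higher than in controls, while TUBB and TUBA1B, the beta and alpha members with the highest mean level per kilobase of exon, did not pass the test. TUBB2A was 3.78-fold higher, TUBB4B 2.76-fold, TUBA4A 2.21-fold and TUBA1A 1.60-fold. The test was edgeR's quasi-likelihood test with terms for batch and treatment, and genes under 0.05 after Benjamini-Hochberg adjustment over all 14092 tested were called. Of the 10 members 8 reached the filter on low counts. Of these 4 were called higher, 0 lower and 4 were not called, where 48.3% of all genes tested were called, 24.1% higher and 24.3% lower. Called rises of at least 2-fold numbered 3 among the members, against 5.93% of all genes tested. The members' median log2 fold change was 0.50, and that of all genes tested was -0.01. In bulk RNA, fewer cells with a transcript and less of it per cell cannot be told apart, and a level is relative to all other RNA in the library.

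TUBB4B (ENSG00000188229.6), a beta tubulin of class IVb made in most tissues, combined a high level with a large difference. In batch 1 it was at 715, 975, 918 and 1021 CPM in the peroxide libraries and at 438, 490.5, 506 and 471 CPM in the controls. In batch 2 it was at 570.3, 406, 515 and 772 CPM in the peroxide libraries and at 154, 133, 142 and 133 CPM in the controls. Every peroxide library lay above every control of its batch, and 7 of 8 lay above all 8 controls, the exception being peroxide library 6. Over both batches the log2 fold change was 1.47 ± 0.16 (SE; edgeR quasi-likelihood test, adjusted p = 1.3e-07). It was 0.93 ± 0.10 in batch 1 alone and 2.01 ± 0.15 in batch 2 alone.

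TUBB2A (ENSG00000137267.6), a class II beta tubulin known best from neurons, had the largest fold change of the 10 listed genes at a low level. Its lowest, median and highest values were 9.75, 13.5 and 17.4 CPM in peroxide libraries and 1.99, 2.93 and 7.03 CPM in control libraries. The groups did not overlap, which held for 6.76% of all genes tested in this direction. Its log2 fold change was 1.92 ± 0.19 (SE; edgeR quasi-likelihood test, adjusted p = 3.6e-08), with 1.44 ± 0.21 in batch 1 alone and 2.47 ± 0.20 in batch 2 alone. These levels count only the reads that could be placed, since 72.6% of its 50-base coding windows occur in TUBB2B too.

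TUBB2B, the sister gene of TUBB2A and a neuronal isotype, had 2 reads in all peroxide libraries and 0 reads in all controls. A count of 0 over the control group allows up to 3 reads, or 0.0371 CPM, and both groups are under this limit of 3 reads, so no fold is given. TUBB6, a class V beta tubulin, ranged from 0.240 to 1.35 CPM in peroxide and from 0.244 to 0.909 CPM in control libraries, below the filter and with overlapping groups. A read shared by TUBB2A and TUBB2B was counted for neither, so the absence of TUBB2B reads rests on the stretches that differ.

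TUBA4A (ENSG00000127824.14), an alpha tubulin whose gene does not encode the terminal tyrosine found on most alpha tubulins, was also separate in all libraries. Its lowest, median and highest values were 11.3, 13.4 and 20.9 CPM in peroxide libraries and 4.49, 6.56 and 8.78 CPM in control libraries. The log2 fold change was 1.14 ± 0.12 (SE; edgeR quasi-likelihood test, adjusted p = 1.6e-07), with 0.98 ± 0.18 in batch 1 alone and 1.31 ± 0.16 in batch 2 alone. None of its 50-base coding windows occurred in the genes searched, which left out TUBA4B and STK16. Of its exon bases 15.4% overlap STK16 on the other strand.

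TUBA1A (ENSG00000167552.14), an alpha tubulin prominent in developing neurons, was called over both batches, with the larger difference in batch 2. In batch 1 it was at 110.3, 164, 151 and 147 CPM in the peroxide libraries and at 106, 106, 132 and 119.9 CPM in the controls. In batch 2 it was at 94.5, 70.3, 67.0 and 106 CPM in the peroxide libraries and at 46.7, 38.2, 41.3 and 32.1 CPM in the controls. The groups overlapped in batch 1, where 3 of 4 peroxide libraries were above all controls, and did not overlap in batch 2. Over both batches the log2 fold change was 0.68 ± 0.13 (SE; edgeR quasi-likelihood test, adjusted p = 0.00023). In batch 1 alone it was 0.30 ± 0.12 (adjusted p = 0.056, edgeR) and in batch 2 alone 1.09 ± 0.14 (adjusted p = 5.3e-05, edgeR).

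**Figure D1:**
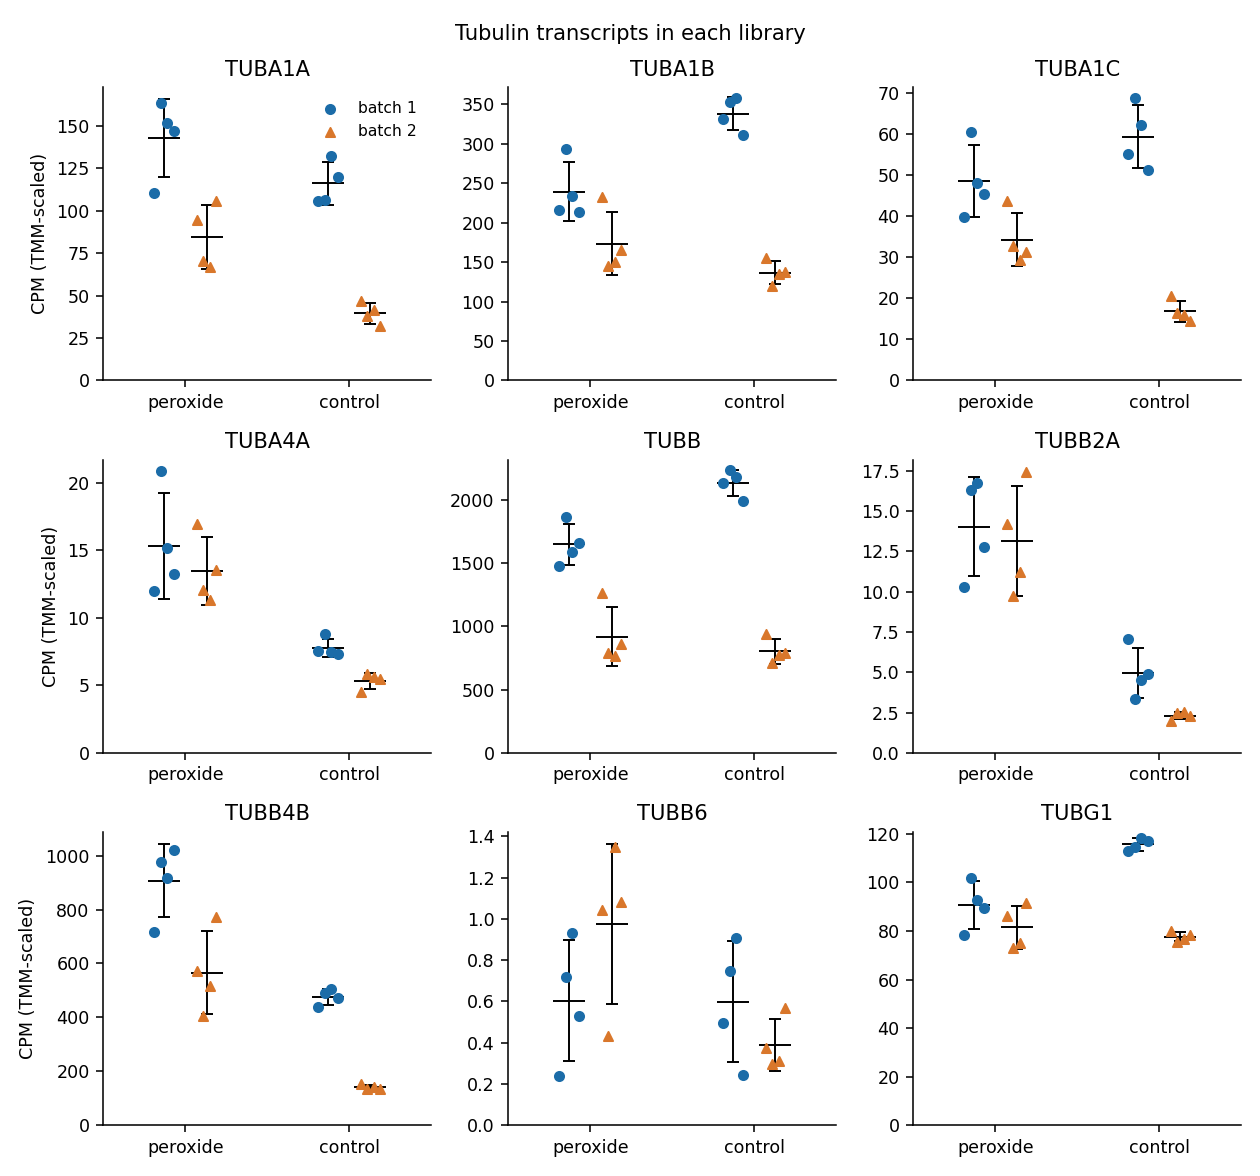
Level in CPM (TMM-scaled) of 9 tubulin genes in each library, peroxide left and control right, with batch 1 as circles and batch 2 as triangles, and the mean and SD of each set of 4 libraries in black. TUBB2A and TUBA4A separate the groups in all libraries and TUBB4B within each batch, while TUBB, TUBA1B, TUBA1C and TUBG1 differ most between the batches of the control group.

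The 4 other tested members were TUBB, TUBA1B, TUBA1C and TUBG1, and none was called over both batches. TUBB (ENSG00000196230.13), the class I beta tubulin of most dividing cells, was at 1477, 1865, 1586 and 1656 CPM in the peroxide libraries of batch 1 and at 2131, 2233, 2180.0 and 1989 CPM in its controls. In batch 2 it was at 1263, 786, 765 and 858 CPM in the peroxide libraries and at 942, 712, 772 and 789 CPM in the controls. Every peroxide library of batch 1 lay below every control, whereas the groups overlapped in batch 2. For TUBB the log2 fold change was -0.09 ± 0.11 (SE; edgeR quasi-likelihood test, adjusted p = 0.52). It was -0.38 ± 0.09 in batch 1 alone (adjusted p = 0.0044, edgeR) and 0.19 ± 0.14 in batch 2 alone (adjusted p = 0.30, edgeR). Without peroxide library 5 TUBB was called lower over both batches (log2 fold change -0.20, edgeR adjusted p = 0.040).

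TUBA1B (ENSG00000123416.15), the alpha tubulin made in nearly all cells, showed a pattern like that of TUBB. In batch 1 it was at 215, 293, 234 and 213 CPM in the peroxide libraries, all below the controls at 331, 352, 358 and 311 CPM. In batch 2 it was at 232, 146, 150.0 and 166 CPM in the peroxide libraries and at 155, 120.1, 134 and 138 CPM in the controls, with overlap. Over both batches the log2 fold change was -0.08 ± 0.13 (SE; edgeR quasi-likelihood test, adjusted p = 0.63). In batch 1 alone it was -0.50 ± 0.10 (adjusted p = 0.0015, edgeR) and in batch 2 alone 0.35 ± 0.13 (adjusted p = 0.046, edgeR), so it passed the test within each batch, in opposite directions.

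TUBA1C (ENSG00000167553.15), a further widely expressed alpha tubulin, was at 39.8, 60.5, 48.1 and 45.3 CPM in the peroxide libraries of batch 1 and at 55.2, 68.6, 62.1 and 51.3 CPM in its controls. In batch 2 it was at 43.6, 32.7, 29.4 and 31.2 CPM in the peroxide libraries and at 20.6, 16.4, 15.9 and 14.5 CPM in the controls. The groups overlapped in batch 1, and in batch 2 every peroxide library was above every control. TUBA1C had a log2 fold change of 0.33 ± 0.18 (SE; edgeR quasi-likelihood test, adjusted p = 0.13), with -0.29 ± 0.13 in batch 1 alone and 1.03 ± 0.14 in batch 2 alone. Without peroxide library 1 TUBA1C was called higher (log2 fold change 0.42, edgeR adjusted p = 0.045).

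TUBG1 (ENSG00000131462.8), the main gamma tubulin and so part of the nucleating ring, varied least between groups among the tested members in batch 2. In batch 1 it was at 78.4, 102, 92.9 and 89.6 CPM in the peroxide libraries, all below the controls at 113, 114, 118 and 117 CPM. In batch 2 it was at 86.3, 73.0, 75.0 and 91.4 CPM in the peroxide libraries and at 79.8, 75.5, 76.6 and 78.5 CPM in the controls. The log2 fold change was -0.14 ± 0.07 (SE; edgeR quasi-likelihood test, adjusted p = 0.12), with -0.35 ± 0.09 in batch 1 alone and 0.07 ± 0.08 in batch 2 alone. Without peroxide library 8 TUBG1 was called lower (log2 fold change -0.19, edgeR adjusted p = 0.035), and with total counts instead of TMM it was called lower too (log2 fold change -0.20, adjusted p = 0.028).

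The difference between peroxide and control libraries thus depended on the batch for several tubulins, and this was tested as the interaction of batch and treatment. The interaction was called for 5 of the 8 members tested, where 4.88% of all genes tested were called, 1.87% with a positive and 3.02% with a negative sign. All 5 were positive, which means a more positive difference in batch 2. The interaction was 1.32 for TUBA1C (edgeR quasi-likelihood test, adjusted p = 0.00072), 1.08 for TUBB4B (adjusted p = 0.0039), 0.85 for TUBA1B (adjusted p = 0.010), 0.79 for TUBA1A (adjusted p = 0.029) and 0.42 for TUBG1 (adjusted p = 0.041) on the log2 scale. The estimates for TUBB2A (1.03, adjusted p = 0.064), TUBB (0.57, adjusted p = 0.072) and TUBA4A (0.33, adjusted p = 0.46) were also positive but not called with edgeR over all 16 libraries. When each library was left out in turn, TUBA1B, TUBA1C and TUBB4B were called each time. TUBA1A was lost without control library 3, 4, 6 or 8 or without peroxide library 5 or 8, with adjusted p up to 0.071 in edgeR. TUBG1 was called in 5 of 16 such fits, with adjusted p up to 0.093 in edgeR. TUBB2A was gained without control library 2 or without peroxide library 2 or 6, and TUBB without peroxide library 2, 6 or 7, with adjusted p of 0.036 to 0.047 in edgeR.

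**Figure D2:**
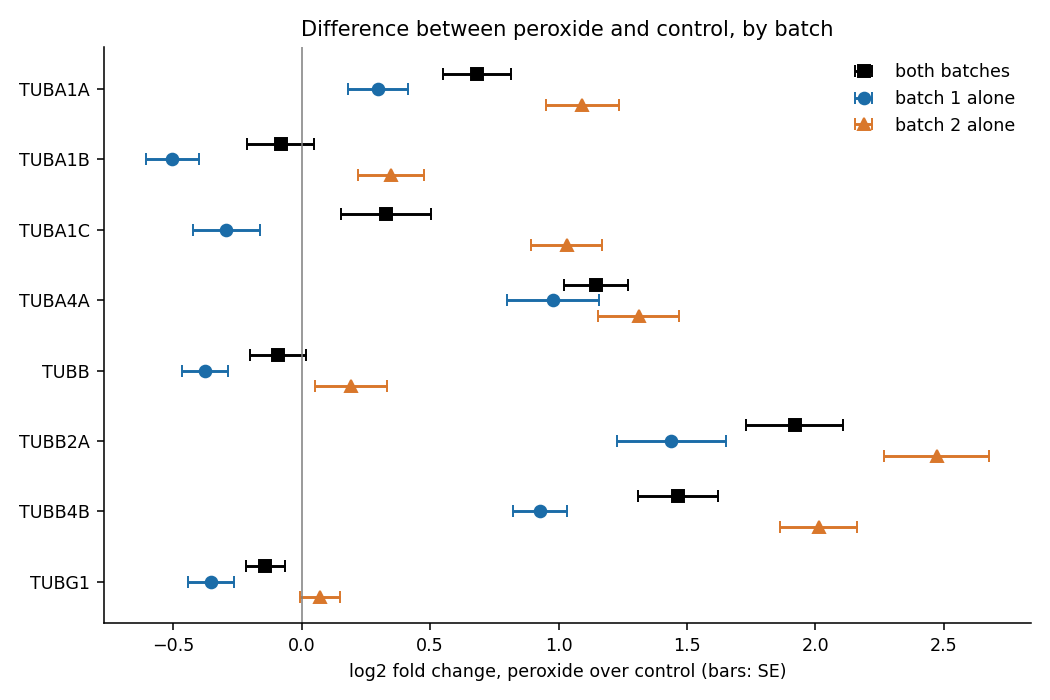
Log2 fold change, peroxide over control, with its SE for 8 tubulins over both batches (squares), in batch 1 alone (circles) and in batch 2 alone (triangles). In each gene the batch 2 estimate lies right of the batch 1 estimate, and TUBA1B, TUBA1C, TUBB and TUBG1 have estimates on opposite sides of 0.

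The batches were then compared inside each group, a comparison added after these values were seen. For each gene the gap between the 2 within-group differences is the interaction again, so it is not a separate result. In peroxide libraries 5 of the 8 tested members were called lower in batch 2 than in batch 1 (edgeR quasi-likelihood test, Benjamini-Hochberg adjustment), where 16.4% of all genes tested were. There the log2 difference was -0.84 ± 0.14 for TUBB, -0.76 ± 0.15 for TUBA1A, -0.68 ± 0.16 for TUBB4B, -0.50 ± 0.14 for TUBA1C and -0.46 ± 0.14 for TUBA1B, while TUBA4A, TUBG1 and TUBB2A were not called. This count was 3 with total counts, 3 without peroxide library 7 and 3 without peroxide library 8. In control libraries all 8 tested members were called lower in batch 2, where 22.2% of all genes tested were, and this held with total counts and with each control library left out. The difference in controls was -1.82 ± 0.12 for TUBA1C, -1.76 ± 0.07 for TUBB4B, -1.56 ± 0.11 for TUBA1A, -1.41 ± 0.08 for TUBB, -1.31 ± 0.08 for TUBA1B, -1.12 ± 0.22 for TUBB2A, -0.58 ± 0.06 for TUBG1 and -0.51 ± 0.14 for TUBA4A. For TUBB, TUBA1A, TUBA1B, TUBA1C and TUBG1 the batches of the control group lay further apart than peroxide and control libraries did within either batch.

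**Figure D3:**
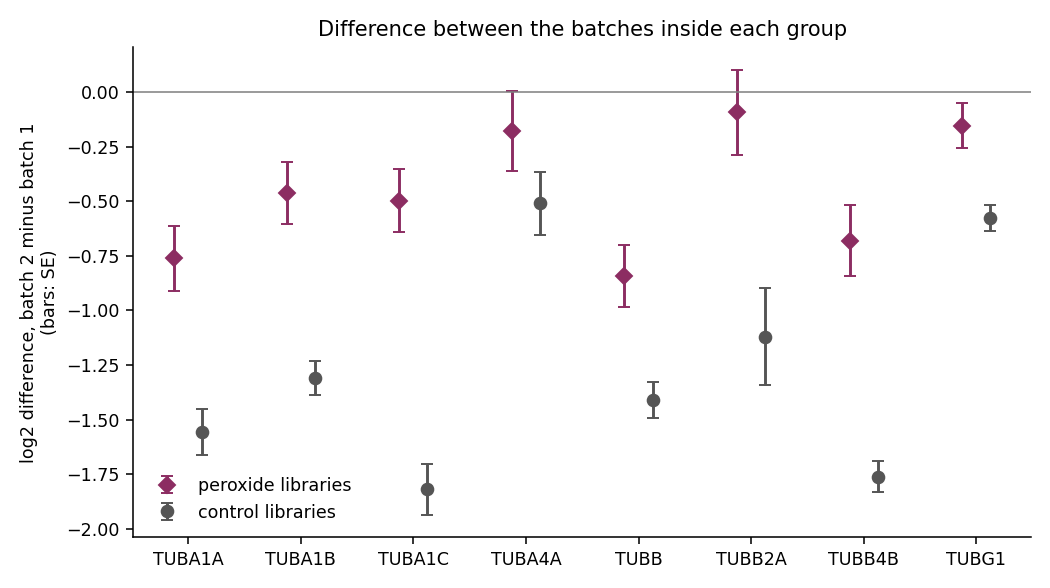
Log2 difference between batch 2 and batch 1, with its SE, inside the peroxide libraries (diamonds) and inside the control libraries (circles) for 8 tubulins. All control values lie below 0, from -0.51 for TUBA4A to -1.82 for TUBA1C, and each peroxide value lies closer to 0 than its control value. The gap between the 2 values of a gene restates its interaction estimate.

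Taken from the same counts, the isotype make-up of the tubulin reads differed between the groups in both batches. The following are shares of reads, corrected neither for gene length nor for the unequal loss of reads shared between genes. They are given as a description and are not the true make-up of the transcripts. Of 50-base coding windows, 33.5% in TUBB and 12.2% in TUBB4B, and 75.7% in TUBA1B and 0% in TUBA4A, also occurred in another gene. Shares make up a whole, so a larger share of TUBB4B leaves a smaller one for TUBB. TUBB4B made up 36.5% ± 5.09 of the reads of the beta members in peroxide libraries and 16.6% ± 1.96 in controls (SD, n = 8 each). The range was 30.8% to 46.8% in peroxide and 14.0% to 19.1% in control libraries, without overlap. Within batches TUBB4B was at 35.2% in peroxide and 18.2% in control libraries of batch 1, and at 37.8% in peroxide and 14.9% in control libraries of batch 2. TUBB made up 62.7% ± 5.24 of beta reads in peroxide and 83.2% ± 1.92 in control libraries, and TUBB2A 0.709% ± 0.205 in peroxide and 0.220% ± 0.0606 in control libraries. Put as a ratio, each TUBB read was matched by 0.593 ± 0.144 TUBB4B reads in peroxide and 0.200 ± 0.0282 in control libraries. This ratio needs no library scaling, and it was higher in all 8 peroxide libraries, at 0.451 to 0.900, than in all 8 controls, at 0.163 to 0.237.

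Among the alpha tubulins the make-up differed less. TUBA1B made up 55.1% ± 3.20 of the reads of the alpha members in peroxide and 66.9% ± 2.86 in control libraries. TUBA1A made up 29.9% ± 3.95 in peroxide and 21.1% ± 2.30 in control libraries, and TUBA4A 3.91% ± 0.595 in peroxide and 2.11% ± 0.753 in control libraries. For both the ranges overlapped slightly over the 2 batches, but not within either batch. The lowest peroxide and highest control shares were 24.4% and 24.5% for TUBA1A, and 3.16% and 3.22% for TUBA4A. TUBA1C was at 11.1% ± 0.781 in peroxide and 9.91% ± 1.75 in control libraries, with overlapping ranges (SD, n = 8 each). The summed level of all 10 members was 3104 ± 348 CPM in peroxide and 3252 ± 149 CPM in control libraries of batch 1, and 1885 ± 370 CPM in peroxide and 1223 ± 128 CPM in control libraries of batch 2 (SD, n = 4 each). The sum thus differed between groups by less than the SD of the peroxide libraries in batch 1, and every peroxide library was above every control in batch 2.

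**Figure D4:**
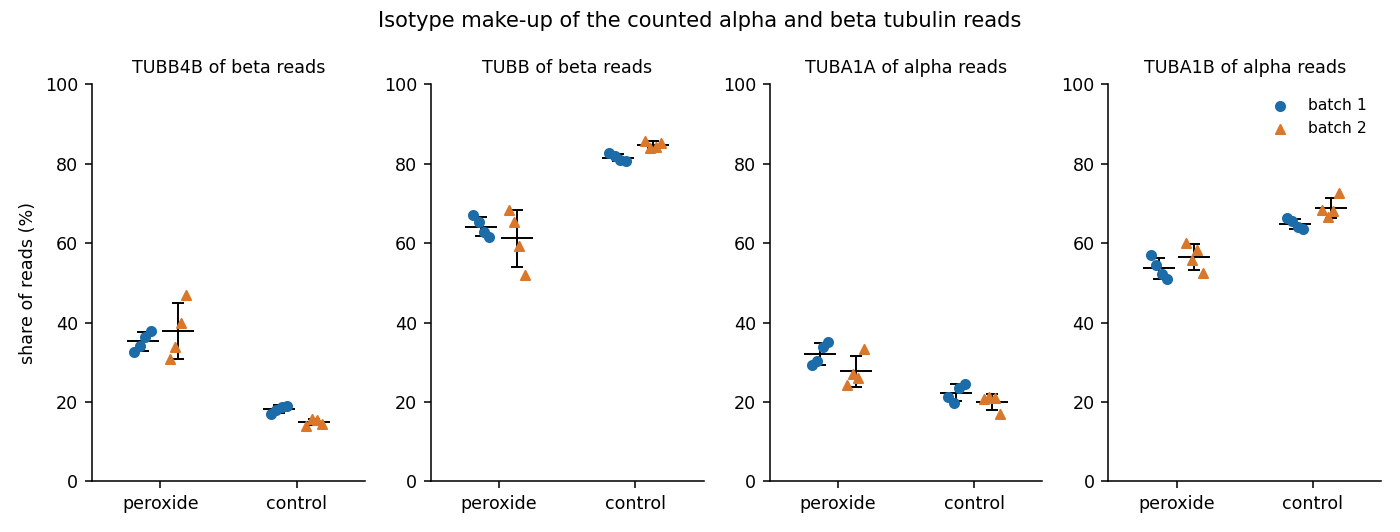
Share in percent of TUBB4B and TUBB among the reads of the beta members and of TUBA1A and TUBA1B among those of the alpha members, per library, peroxide left and control right, with batch 1 as circles, batch 2 as triangles, and mean and SD in black. TUBB4B lies at 30.8% to 46.8% in peroxide libraries and 14.0% to 19.1% in controls, and the 2 groups do not overlap for TUBB or TUBA1B either. For TUBA1A they overlap slightly, with the lowest peroxide library at 24.4% and the highest control at 24.5%.

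Per kilobase of exon (GENCODE release 29), the order of the mean levels pooled over the batches was the same in both groups, with TUBB first, then TUBB4B, TUBA1B, TUBG1, TUBA1A, TUBA1C, TUBB2A, TUBA4A, TUBB6 and TUBB2B. Within batches, control libraries kept this order, and peroxide libraries had neighbours exchanged: TUBA1A at 41.8 ± 6.71 CPM per kilobase stood before TUBG1 at 37.6 ± 4.02 in batch 1, and TUBB2A at 7.60 ± 1.96 before TUBA1C at 7.39 ± 1.38 in batch 2 (SD, n = 4 each). In peroxide libraries TUBB averaged 382 ± 128 and TUBB4B 349 ± 107 CPM per kilobase, with overlapping ranges, and TUBB4B lay apart from TUBA1B at 57.7 ± 14.1. In control libraries TUBB averaged 437 ± 213, TUBB4B 146 ± 85.6 and TUBA1B 66.4 ± 30.5 CPM per kilobase, each overlapping the next over the 2 batches. TUBA1B, TUBG1 and TUBA1A overlapped in turn in each group. TUBA4A lay apart from TUBB2A in peroxide libraries, at 3.53 ± 0.787 against 7.86 ± 1.75 CPM per kilobase, but overlapped it in controls, at 1.61 ± 0.349 against 2.11 ± 1.01 CPM per kilobase (SD, n = 8 each). Genes that lost shared reads have their levels understated on this scale.

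The profile of TUBB over the 16 libraries was compared with that of 10802 genes whose mean was at least 5 CPM, by the root mean square difference of log2 CPM (pseudocount 0.5) after each gene was centred. The gene with the closest profile was TUBA1B, at 0.156, followed by VDAC1 at 0.169 and NDUFS5 at 0.175. In turn TUBA1B was closest to TUBB, followed by PGK1 at 0.157 and NT5DC2 at 0.159. TUBA1C was in place 111 from TUBB, TUBG1 in place 491 and TUBA1A in place 673. TUBA4A was in place 7512, TUBB4B in place 8781 and TUBB2A in place 10361. From TUBA1B, TUBA1C was in place 167, TUBG1 in place 227, TUBA1A in place 1981 and TUBA4A in place 7998. The beta tubulins TUBB4B and TUBB2A were in places 9692 and 10455 from TUBA1B. TUBB and TUBA1B thus had like profiles, but other pairs of an alpha and a beta tubulin did not. Both orders are descriptions over these 16 libraries.

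The stretches 250 bases upstream of the RefSeq starts (GRCh38.p14) are printed for TUBB2A and TUBB4B, which had the largest fold changes of the listed genes, and for both starts of TUBB, which was not called. Capitals mark matches to motifs other than the GC box.
TUBB2A, chr6:3157545-3157794, minus strand: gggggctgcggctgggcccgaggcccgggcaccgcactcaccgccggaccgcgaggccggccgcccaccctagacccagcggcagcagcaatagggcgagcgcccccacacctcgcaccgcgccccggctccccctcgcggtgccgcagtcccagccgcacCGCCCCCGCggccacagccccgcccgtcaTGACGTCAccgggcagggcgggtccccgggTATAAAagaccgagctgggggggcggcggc
TUBB4B, chr9:137241037-137241286, plus strand: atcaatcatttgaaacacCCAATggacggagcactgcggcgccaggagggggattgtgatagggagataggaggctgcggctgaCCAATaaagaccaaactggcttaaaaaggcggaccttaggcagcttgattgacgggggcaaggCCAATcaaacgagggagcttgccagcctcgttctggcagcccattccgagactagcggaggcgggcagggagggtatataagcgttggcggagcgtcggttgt
TUBB, upstream start, chr6:30720102-30720351, plus strand: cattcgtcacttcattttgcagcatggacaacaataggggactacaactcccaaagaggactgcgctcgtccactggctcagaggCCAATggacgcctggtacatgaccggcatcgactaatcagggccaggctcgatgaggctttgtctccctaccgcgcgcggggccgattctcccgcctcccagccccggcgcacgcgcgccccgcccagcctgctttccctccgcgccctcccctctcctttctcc
TUBB, downstream start, chr6:30721388-30721637, plus strand: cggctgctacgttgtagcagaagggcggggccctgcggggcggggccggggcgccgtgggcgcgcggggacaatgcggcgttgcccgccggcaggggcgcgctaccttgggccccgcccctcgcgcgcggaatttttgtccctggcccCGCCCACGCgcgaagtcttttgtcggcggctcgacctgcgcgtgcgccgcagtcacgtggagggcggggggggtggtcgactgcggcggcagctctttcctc
Motifs were searched on both strands, and shares are of 35116 RefSeq promoter windows of 250 bases. TUBB2A holds the cyclic AMP response element TGACGTCA, found in 1.65% of windows, at -60 to -53 from the start, and TATAAA, found in 10.7%, at -30 to -25. It also holds the early growth response (EGR) motif GCGNGGGCG, read on the strand opposite to the printed one, at -89 to -81, found in 8.41% of windows and overlapping a GC box (GGGCGG, found in 42.6%). TUBB4B holds the box CCAAT, found in 32.0% of windows, 3 times on the printed strand, from -232, -166 and -103. The box also occurs in the upstream window of TUBB, at -165 to -161, and in windows of TUBA1A, TUBA1C, TUBB2B, TUBB6 and TUBG1. The downstream window of TUBB holds the EGR motif on the strand opposite to the printed one from -102, again overlapping a GC box. Of the motifs searched, the window of TUBA4A, not printed, held the GC box only. The AP-1 motif TGANTCA (6.57% of windows), the amino acid response motif TGATGNAA (3.14%), the NRF2 motif TGACNNNGC (10.9%), the heat shock element and the endoplasmic reticulum stress element had no match in the printed windows. A match is a description of letters and not of a bound factor.

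Of 12 further tubulin genes 8 reached the filter. Among them was TUBB3, the class III beta tubulin used as a neuronal marker. Its lowest, median and highest values were 8.03, 10.6 and 17.8 CPM in peroxide libraries and 0.355, 0.568 and 0.939 CPM in control libraries. TUBB3 reached the filter through its peroxide libraries alone, with 3 to 12 reads in each control, so it could enter the test only as a gene that differed and its levels are given without a fold or p. The gene AC092143.1 covers 35.8% of its exon bases on the same strand. The neighbouring gene MC1R was chosen after its values were seen, so its levels are given without a test. It averaged 12.1 CPM in peroxide and 5.91 CPM in control libraries. TCF25, looked at with it, averaged 128 CPM in peroxide and 115 CPM in control libraries. Of the further tubulins, TUBA3D, TUBAL3, TUBB1, TUBB4A, TUBD1, TUBE1 and TUBG2 were tested and not called. Their log2 fold changes lay between -0.48 for TUBAL3 and 0.34 for TUBB1. TUBA3C, TUBA3E, TUBA8 and TUBB8 were below the filter. The interaction was called for 2 of these genes, TUBB4A and TUBE1. TUBB4A, a beta tubulin of the brain, had an interaction of 0.87 (adjusted p = 0.020, edgeR) and a log2 difference, batch 2 over batch 1, of -0.47 ± 0.17 in peroxide and -1.34 ± 0.11 in control libraries, the direction seen in the members. TUBE1, the centriolar epsilon tubulin, went the other way, with an interaction of -0.70 (adjusted p = 0.032, edgeR) and a log2 difference of 0.47 ± 0.14 in peroxide and 1.17 ± 0.10 in control libraries.

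Among genes that fold, modify or bind tubulin, all those named here had log2 fold changes nearer to 0 than TUBA4A, TUBB2A and TUBB4B. Of 21 genes of tubulin folding (the CCT chaperonin, prefoldin and the tubulin cofactors) 7 were called higher and 2 lower, with a median log2 fold change of 0.13. TBCA, the cofactor that takes up beta tubulin, was at 0.36 ± 0.07, the prefoldin subunit PFDN5 at 0.33 ± 0.06 and the chaperonin subunit CCT2 at 0.27 ± 0.06, while TBCD at -0.26 ± 0.05 and ARL2, which acts with it, at -0.49 ± 0.11 were lower (log2 fold change ± SE). Of 9 genes of the gamma-tubulin ring complex, the partners of TUBG1, 1 was called higher, MZT1 at 0.33 ± 0.12, and 1 lower, TUBGCP4 at -0.21 ± 0.07. Of 4 genes of tubulin autoregulation 0 were higher and 2 lower: TTC5 at -0.31 ± 0.07 (adjusted p = 0.00065, edgeR quasi-likelihood test) and the CCR4-NOT scaffold CNOT1 at -0.29 ± 0.07. TTC5 was at 40.9 CPM in peroxide and 50.8 CPM in control libraries.

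Of 15 tested genes for enzymes that modify tubulin 3 were called higher and 6 lower. The tyrosine ligase TTL was at -0.37 ± 0.05, the glutamylase TTLL4 at -0.52 ± 0.06 and the tyrosine-removing VASH1 at -0.35 ± 0.10 (log2 fold change ± SE). On the other side were the deacetylases SIRT2 at 0.29 ± 0.06 and HDAC6 at 0.18 ± 0.07, and the acetyltransferase ATAT1 at 0.26 ± 0.08. Of 25 tested genes for microtubule binding and dynamics 5 were called higher and 9 lower. STMN1, which binds free tubulin dimers, was at 0.41 ± 0.05, the severing subunit KATNA1 at 0.43 ± 0.05 and the plus-end binding MAPRE1 at 0.31 ± 0.05, whereas FIGNL1 was at -0.72 ± 0.10. In these lists the shares called were near or below the 24.1% higher and 24.3% lower of all genes tested, apart from folding genes called higher (7 of 21), modifying enzymes called lower (6 of 15), microtubule binding genes called lower (9 of 25) and autoregulation genes called lower (2 of 4).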

How the data were processed

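RNA-seq was available for 16 libraries of Jurkat E6-1 cells, 8 per group. The values are raw counts of reads in each gene as the authors deposited them, not normalized. The submitters' processing notes name STAR 2.7.1a, HTSeq 0.6.1 and hg19. Yet 68.0% of the gene identifiers carry the version of GENCODE release 29, which annotates GRCh38, so no coordinates of the counts are printed. The sources used here do not give the annotation, the counting mode or the use of strand. Without strand, reads of genes that overlap on opposite strands cannot be told apart. The larger such overlaps cover 36.6% of exon bases in TUBA1B, 20.3% in TUBB6, 16.0% in TUBB and 15.4% in TUBA4A. In TUBA1A 14.3% overlap TUBA1C. In TUBA1C 14.4% overlap AC125611.3 and 10.6% overlap TUBA1A. Symbols matched 99.5% of identifiers. The 5 rows that name no gene held 43.5% to 57.6% of counted reads and stayed out of library sizes and tests.

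In edgeR 4.0.16 (R 4.3.3), filterByExpr left 14092 genes, which were scaled with TMM and tested by quasi-likelihood with terms for batch and treatment and Benjamini-Hochberg adjustment over all of them. SE is the absolute log2 fold change over the square root of F. Batches were taken from the names of the deposited tables. The interaction of batch and treatment was tested in the same way. Library shares were compared with exact permutation tests (SciPy 1.17.1), two-sided. Coding sequences were aligned with Biopython 1.88. All 10 members matched RefSeq promoters (GRCh38.p14). All libraries differed beyond sampling noise: chi-square per degree of freedom was 2.75 to 15.9 within a batch. The steps were tested on simulated data. Alternatives were DESeq2 1.42.0, limma-voom (limma 3.58.1), other scalings and filters, each batch alone, the replicate number as a block, and each library left out. The members and lists were chosen with earlier results of these data known. Genes named are all members, 12 further tubulins, and from each list up to 4 genes of smallest p whose mean was at least 1 CPM, plus those that moved against the rest. Some sequences and marker values are not reported here.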

Additional observations from a re-analysis of the deposited data

Results flagged for a closer look

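Control library 1 stood apart from the other control libraries in its share of counted reads not aligned uniquely, at 47.2%, with a gap to the nearest library of 0.796 of the group's range, above the critical value of 0.526 for 8 libraries. Chance alone gives a gap above this critical value in about 1 in 20 groups, and 23 groups were looked at. Without this library and peroxide library 5, which held the next highest share, TUBA1A, TUBA4A, TUBB2A and TUBB4B were still the 4 members called. The difference between peroxide and control libraries differed between the batches for 5 tubulins by the interaction test in edgeR, with log2 values of 0.79 for TUBA1A, 0.85 for TUBA1B, 1.32 for TUBA1C, 1.08 for TUBB4B and 0.42 for TUBG1.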

How the results depend on the processing

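TUBA4A, TUBB2A and TUBB4B kept their direction and call in all 28 alternatives. In batch 2 alone the sign reversed for TUBA1B (0.35, adjusted p = 0.046), TUBB (0.19) and TUBG1 (0.071), and in batch 1 alone for TUBA1C (-0.29), all log2 fold changes from edgeR. TUBA1A was not called in batch 1 alone (0.30) or with no batch term (0.55, adjusted p = 0.16). With no filter, TUBA1C was called higher and TUBG1 lower. Over all genes, 6809 were called, with 3391 higher and 3418 lower. With total counts 2809 were higher and 4414 lower. Leaving out each library gave 6426 to 6991 calls. The interaction was called for 688 genes, for 1109 with DESeq2, where TUBB and TUBB2A were called as well, and for 333 (without peroxide library 5) to 1229 (without peroxide library 2) when each library was left out. The not-unique share differed by 7.97 percentage points in batch 2 alone. The causes were not tested. Replicate numbers did not pair the libraries (correlations of same-numbered libraries -0.15 to 0.17, 2 of 8 pairs above 0.1), and with the replicate number as a block 6686 genes were called, with the same 4 members among them. Few reads limit TUBB2B and TUBB6.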
